A study of Mus musculus with 4 samples.

Results

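Paneth cells are secretory cells at the base of small intestinal crypts that store alpha-defensins, lysozyme and other antimicrobial proteins in granules and support the neighbouring stem cells. Trypsinogens are the inactive precursors of trypsin, made chiefly by the acinar cells of the pancreas, and trypsin is also known as an enzyme that can process alpha-defensin precursors. SLC7A5 carries large neutral amino acids into cells as a heterodimer with SLC3A2. When amino acids are scarce, uncharged tRNA activates a kinase that raises translation of the transcription factor ATF4, which in turn drives genes of amino acid uptake, amino acid synthesis and tRNA charging, the integrated stress response.

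The cells described here are the trypsinogen-positive cells among the alpha-defensin-rich cells of *Slc7a5* IEC-KO mouse crypts. They were chosen in the 2 libraries labelled IEC-KO as cells in which UMIs (unique molecular identifiers, each counted as 1 captured mRNA molecule) of gene symbols starting with *Defa* made up at least 25% of the cell's total (Defa-rich cells) and in which at least 1 UMI of *Try5*, a trypsinogen gene, was counted. The rule was met by 1721 cells, 709 in IEC-KO library 1 and 1012 in IEC-KO library 2, of 5718 Defa-rich cells and 19648 cells in those libraries, and of 26498 cells in all. The cells to which they were compared were the 2024 and 1973 Defa-rich cells of the same libraries with no *Try5* UMI, and the 2086 and 2005 Defa-rich cells of the fl/fl libraries.

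Live epithelial cells (EpCAM+ CD45-) were sorted from enriched crypts of mice 8 weeks old and profiled with the 10x Genomics 3′ assay, in 2 libraries for each genotype. The fl/fl mice carried the floxed *Slc7a5* allele without Cre. The IEC-KO mice carried the same floxed allele and Cre under the villin promoter, which is active throughout the intestinal epithelium, so that stem, absorptive and secretory cells were all targeted. How the mice were divided among the libraries is not given in the sources used here. P-values between genotypes rest on the spread between 2 libraries a group, taken for each gene largely from the spread shared across genes. Totals were 87922473 and 127094508 UMIs in the IEC-KO libraries and 113529509 and 119339206 in the fl/fl libraries.

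Differences between the libraries that bear on the results were found before any gene was compared. The median depth of a cell was 6699.5 and 9717.5 UMIs in the IEC-KO libraries against 22242 and 32549 in the fl/fl libraries. *Xist*, transcribed from the inactive X chromosome of females, stood at 42.6 and 46.3 CPM (the usual scaling of a gene's UMIs to all UMIs of the summed cells) in fl/fl Defa-rich cells and at 214 and 238 CPM in the *Try5*-positive cells, and *Ddx3y*, on the Y chromosome, at 3.97 and 3.81 against 1.41 and 1.81 CPM. Every library thus held UMIs of both, and the mix of sexes and the genotype cannot be told apart. At most 132 barcodes were shared by any pair of libraries. *Slc7a5* (chr8:121881150-121907694, GRCm38, minus strand) had 0.973 and 0.816 CPM in fl/fl Defa-rich cells and 3.25 and 4.95 CPM in the *Try5*-positive cells. The floxed part is exon 1 and the assay reads the 3′ end, so this level does not check the deletion, and the genotypes are those of the labels.

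Trypsinogens are a family of closely similar genes, and the ends of their coding sequences are shown because a 3′ assay separates the members only by sequence near the end of the mRNA. *Try5* (chr6:41311233-41316841, GRCm38, minus strand) and *Try4* (chr6:41302269-41305532, plus strand) have coding sequences of 741 bases in the GENCODE M21 transcripts and differ at 19 of them (97.4% identity). *Try10* differs from *Try5* at 48 of 741 bases (93.5% identity) and *Prss2* at 72 (90.3% identity). The last 90 coding bases are printed below, 5′ to 3′, with bases that differ from *Try5* in capitals, of which *Try4* has 3 and *Prss2* has 16.
Try5: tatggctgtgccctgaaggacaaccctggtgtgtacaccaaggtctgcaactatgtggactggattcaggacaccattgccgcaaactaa
Try4: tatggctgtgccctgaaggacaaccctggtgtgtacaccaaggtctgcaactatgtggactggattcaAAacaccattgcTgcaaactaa
Prss2: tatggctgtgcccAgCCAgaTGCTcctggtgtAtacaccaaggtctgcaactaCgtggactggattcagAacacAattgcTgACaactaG

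The trypsinogen counted in these cells was *Try5*, with 2566 and 3243 UMIs in the *Try5*-positive cells of the IEC-KO libraries. *Try4* had 7 and 4 UMIs in them and 1 and 0 in the *Try5*-negative cells, and reads that fit both genes cannot be assigned with certainty. *Try10*, *Prss1*, *Prss2* and *Prss3* had 0 UMIs in both. Of the markers of pancreatic acinar cells, *Cpa1* (a carboxypeptidase) and *Amy2a5* (amylase) had 0 UMIs, 8 of the 12 acinar markers were at 0 in the *Try5*-positive cells of both libraries, against 7 and 5 in the *Try5*-negative cells, and the most abundant was the elastase *Cela1*, at 25.2 and 21.6 CPM in *Try5*-positive, 26.8 and 22.1 CPM in *Try5*-negative and 10.99 and 10.8 CPM in fl/fl Defa-rich cells. The colipase gene *Clps*, a pancreatic-type gene not restricted to IEC-KO cells, stood at 2574 and 2061 CPM in *Try5*-positive, 2697 and 2203 CPM in *Try5*-negative and 4227 and 4035 CPM in fl/fl Defa-rich cells.

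Most of the cells met the rule by a single molecule. Of the 709 and 1012 cells, 419 (59.1%) and 611 (60.4%) had exactly 1 *Try5* UMI, 72 and 135 had 2, 145 and 176 had 3 to 9, and 73 and 90 had 10 or more, up to 51 and 66 in a cell. The cells with at least 3 *Try5* UMIs, 30.7% and 26.3% of the *Try5*-positive cells, held 78.1% and 72.8% of the *Try5* UMIs of all Defa-rich cells. By the same rule 3 of 2086 and 2 of 2005 Defa-rich fl/fl cells were positive, each with 1 UMI. These values follow from the rule and are given as a description.

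The libraries differed in depth, so detection was also read at equal depth. With all UMIs, 25.9% (95% exact binomial interval 24.3 to 27.6) and 33.9% (32.2 to 35.6) of Defa-rich IEC-KO cells had a *Try5* UMI, at median depths of 12569 and 18634 UMIs. After each cell was thinned to 3800 UMIs, which left out no cell, the shares were 12.04% (10.8 to 13.3) and 11.8% (10.6 to 13.0), and the intervals overlapped. These intervals cover counting error only.

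Free RNA in the droplets gives UMIs to cells that do not make a transcript, and cells with little *Defa* served as the measure of it. At 3800 UMIs, 3.96% (3.42 to 4.56) and 4.18% (3.58 to 4.84) of cells with under 5% *Defa* had a *Try5* UMI, with all UMIs 6.23% and 8.97% at median depths of 5473 and 7728. Among IEC-KO cells with enterocyte markers the thinned counts were 12 of 243 and 8 of 147, and among those with tuft markers 1 of 55 and 0 of 15. The share in Defa-rich cells lay above that in cells under 5% *Defa* beyond the intervals in both libraries. At the *Try5* level of cells under 5% *Defa* (12.7 and 13.5 CPM), a Defa-rich cell of mean depth would hold 0.180 and 0.289 *Try5* UMIs, against 0.939 and 1.09 counted. Exactly 1 *Try5* UMI was found in 15.3% and 20.5% of Defa-rich cells and in 5.76% and 8.20% of the shallower cells under 5% *Defa*, so a single UMI did not tell the classes apart cell by cell. At least 3 were found in 7.98% and 8.91% of Defa-rich cells and in 0.128% and 0.298% of cells under 5% *Defa*.

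**Figure D1:**
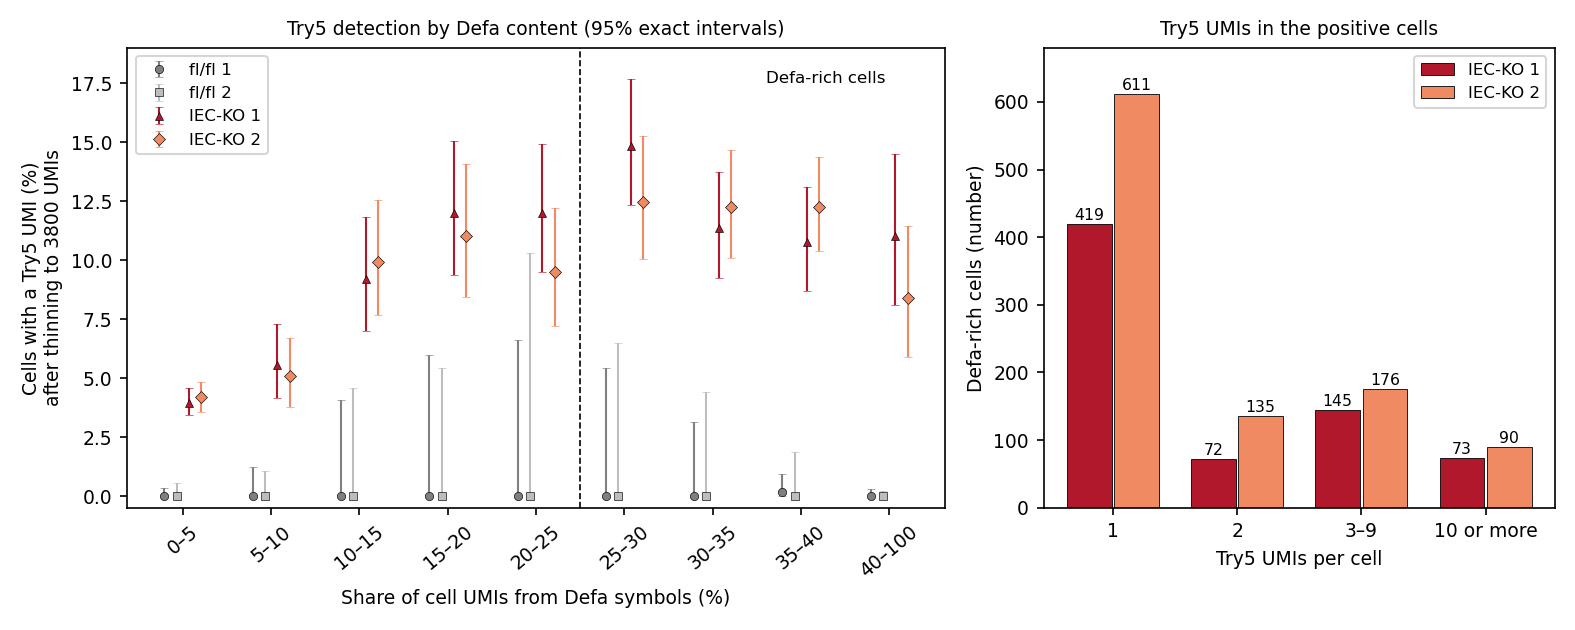
Left, the share of cells with a Try5 UMI after thinning to 3800 UMIs (percent, with 95% exact binomial intervals) against the share of UMIs from Defa symbols, in the 4 libraries, with the dashed line at the 25% limit; right, the number of Defa-rich IEC-KO cells by Try5 UMIs per cell. The IEC-KO libraries climb from 3.96% and 4.18% in the lowest bin to about the level of Defa-rich cells by the bin of 15 to 20%, with no step at the limit, and the fl/fl libraries stay at or near 0.

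The limit of 25% *Defa* did not separate 2 kinds of cells, as the plot of detection by *Defa* content shows. Just inside it, at 25 to 30% *Defa*, 167 and 176 cells were *Try5*-positive, with *Try5* at 367 and 177 CPM, *Reg4* at 8931 and 7300 CPM and *Lgmn* at 115 and 97.2 CPM. Just outside it, at 20 to 25%, there were 110 and 130 such cells, with *Try5* at 393 and 245 CPM, *Reg4* at 8863 and 7143 CPM and *Lgmn* at 104 and 97.3 CPM. Among *Try5*-positive cells *Defa* made up a median of 34.7% and 35.8% of UMIs, against 33.7% and 34.6% in *Try5*-negative cells.

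*Reg4*, *Lgmn* and *Trib3* were given with the rule as marks of these cells and are described without a test. *Reg4* encodes a lectin of the regenerating family, *Lgmn* the lysosomal protease legumain, and *Trib3* a pseudokinase induced by ATF4 and CHOP. *Reg4* had 6979 and 5720 CPM in *Try5*-positive and 6818 and 6006 CPM in *Try5*-negative cells of IEC-KO libraries 1 and 2, and 1076 and 953 CPM in fl/fl Defa-rich cells. *Lgmn* had 81.6 and 71.7 CPM, 74.1 and 71.7 CPM, and 23.6 and 23.3 CPM in the same order. *Trib3* had 84.4 and 66.8 CPM, 80.3 and 72.9 CPM, and 0.596 and 0.374 CPM. All 3 thus set IEC-KO apart from fl/fl Defa-rich cells, and none of them separated *Try5*-positive from *Try5*-negative cells of both libraries. *Trib3* was not particular to Defa-rich cells either, with 73.3 and 76.4 CPM in IEC-KO cells under 5% *Defa*. Above the *Try5*-negative level in both libraries were *Reg4* and *Lgmn* in cells with 3 or more *Try5* UMIs and *Trib3* in cells with 10 or more.

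Within the Defa-rich cells of each library, *Reg4* and *Lgmn* followed the number of *Try5* UMIs once it reached 3. *Reg4* stood at 6463 and 5425 CPM in cells with 1 *Try5* UMI, at 7612 and 6366 CPM with 3 to 9, and at 9128 and 7684 CPM with 10 or more. *Lgmn* stood at 76.1 and 63.6 CPM, 83.4 and 86.2 CPM, and 125 and 112 CPM. *Trib3* stood at 82.6 and 63.7 CPM, 87.2 and 70.3 CPM, and 103 and 76.6 CPM. Cells with 10 or more had the most *Reg4* and *Lgmn* in both libraries. These classes were not matched in depth. At matched depth, cells with exactly 1 *Try5* UMI had *Reg4* at 0.04 ± 0.02 and *Lgmn* at 0.07 against cells with none, on the log2 scale.

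**Figure D2:**
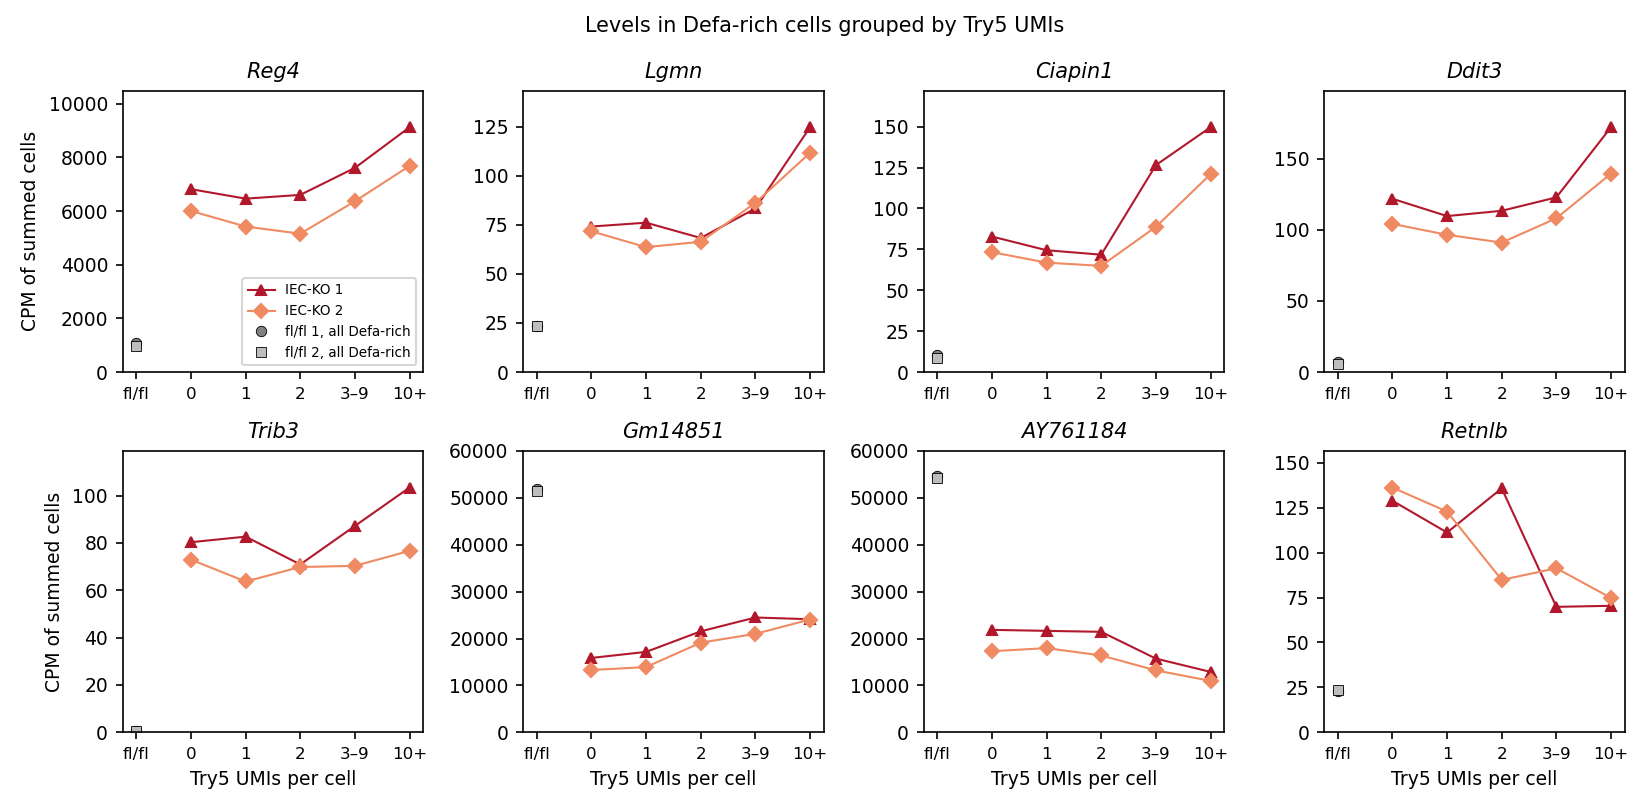
Levels (CPM of summed cells) of 8 genes in Defa-rich IEC-KO cells grouped by Try5 UMIs per cell, 1 line for each library, with fl/fl Defa-rich cells as separate points at the left of each panel. Reg4, Lgmn, Ciapin1 and Ddit3 are highest in cells with 10 or more Try5 UMIs in both libraries, AY761184 is lowest there, and Trib3 differs far more between genotypes than along the axis.

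To compare the cells at matched depth, equal numbers of *Try5*-positive and *Try5*-negative Defa-rich cells were drawn in narrow bins of total UMIs within each library (707 a group in library 1 and 958 in library 2, with median depths of 14196 and 14215, and of 21329 and 21166 UMIs). The groups differed little. Of 10639 genes tested with edgeR, with the library as a block and leaving out *Try5*, *Defa* symbols, *Reg4*, *Lgmn* and *Trib3*, 9 were higher (0.0846%) and 13 lower (0.122%) in *Try5*-positive cells at an adjusted p below 0.05 (0.207% of genes called, and 591 at an unadjusted p below 0.05), and no named change exceeded 0.30 on the log2 scale. Both groups come from the same libraries, so the test does not weigh a difference between animals. It weighs counting error and a spread shared across genes, so a gene's own agreement between the 2 libraries has no weight in its p-value.

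The genes called higher and at a mean of at least 50 CPM were *Chgb*, *Ciapin1*, *Gm14851*, *Pnliprp2*, *Chchd10*, *Apoa1* and *Gm15284*. *Ciapin1*, which takes part in building cytosolic iron-sulfur proteins, had 93.1 and 75.9 CPM against 77.8 and 67.5 CPM, a log2 fold change of 0.20 ± 0.04 (SE; edgeR adjusted p = 0.00036). *Gm14851*, an alpha-defensin gene without a *Defa* symbol in the files, had a log2 fold change of 0.17 ± 0.02 (edgeR adjusted p = 2.5e-22). In cells with exactly 1 *Try5* UMI against none it was instead called lower, at -0.10 (edgeR adjusted p = 0.0023). *Chgb*, an enteroendocrine granule protein, had a log2 fold change of 0.30 ± 0.05 that turned to -0.11 when cells near simulated doublets were left out. Such cells were 10.2% and 9.29% of *Try5*-positive and 7.56% and 6.94% of *Try5*-negative cells.

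Of the 13 genes called lower, the 12 that met the rule for naming are given here. *Retnlb*, a goblet cell hormone-like protein, had 102 and 109 CPM in *Try5*-positive against 118 and 129 CPM in *Try5*-negative cells, a log2 fold change of -0.23 ± 0.03 (edgeR adjusted p = 3.3e-09). *AY761184* and *Gm7861*, alpha-defensin genes, had log2 fold changes of -0.17 ± 0.02 and -0.15 ± 0.02. *Cd74*, *Sct*, *Rnase1*, *Spink4*, *Tmsb4x*, *Tff3*, *Guca2b*, *Ang4* and *Guca2a* were between -0.15 and -0.07 on the same scale. None of the 24 tested genes of the integrated stress response list, the 26 of endoplasmic reticulum folding, the 29 of lysosome and autophagy or the 82 ribosomal proteins was called in either direction, and with 0.207% of all genes called a count of 0 says little about lists of this size. Of 12 goblet markers 3 were lower, of 12 enteroendocrine markers 1 was higher and 2 lower, and of 14 enterocyte markers 1 was higher.

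These small differences depended on the model. Scaling by library size only called 4 genes, DESeq2 called 1 (*Gm14851*), and the fit without the library block called 0, with 240 genes at an unadjusted p below 0.05. At 40% *Defa* or more, with 114 and 155 cells a group, 2 genes were called and *Retnlb* turned to 0.38.

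A larger contrast was found for cells with at least 3 *Try5* UMIs, a limit chosen after the counts per cell had been seen. These 218 and 265 cells were set against as many depth-matched *Try5*-negative cells (median depths of 14021 and 14027.5, and of 19238 and 19368 UMIs), and 22 genes were higher (0.271%) and 38 lower (0.468%) of 8121 tested (0.739% called), 17 of them also called with at least 1 *Try5* UMI. With exactly 1 *Try5* UMI against none, 6 of 9868 genes were called (0.0608%), 2 higher (0.0203%) and 4 lower (0.0405%).

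Among the 22 genes that rose in cells with at least 3 *Try5* UMIs, *Mt2* had the largest change of those named. *Mt2*, a metallothionein, had 42.4 and 67.3 CPM in *Try5*-positive against 31.9 and 34.8 CPM in *Try5*-negative cells of libraries 1 and 2, a log2 fold change of 0.78 ± 0.10 (edgeR adjusted p = 9.9e-13). The related *Mt1* rose from 442 and 449 CPM to 493 and 526 CPM, a log2 fold change of 0.20 ± 0.04. *Ciapin1* had 134 and 100 CPM against 85.5 and 69.8 CPM, a log2 fold change of 0.58 ± 0.07 (edgeR adjusted p = 4.3e-14), and *Chchd10*, a protein of the mitochondrial intermembrane space, 1159 and 921 CPM against 877 and 780 CPM, a log2 fold change of 0.32 ± 0.04. In both libraries the positive group was the higher for each of these genes, and the libraries' ranges did not overlap for *Mt2*, *Mt1*, *Ciapin1* and *Chchd10*.

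*Ddit3*, which encodes the stress-induced factor CHOP, had 139 and 119 CPM against 118 and 99.7 CPM, a log2 fold change of 0.25 ± 0.06 (edgeR adjusted p = 0.0081). It was the one gene of 24 tested on the integrated stress response list that rose, where 0.271% of all genes rose and 0.468% fell. The amino acid transporter *Slc1a4* of that list fell by 0.40 ± 0.11 on the log2 scale. The median of the list was -0.01, against -0.0034 for all genes tested. *Bambi*, a pseudoreceptor of TGF-beta signalling, rose by 0.49 ± 0.10, *Rgs2*, a regulator of G protein signalling, by 0.40 ± 0.07, and *Creg1*, a secreted lysosomal glycoprotein, by 0.32 ± 0.08. *Spg21*, *Cox20* and *2210407C18Rik* rose by 0.46, 0.37 and 0.34, and *Spg21* lost its call without doublet neighbours (0.35, edgeR adjusted p = 0.12). By the same fit and given without a test, *Lgmn* had a log2 fold change of 0.43 ± 0.07, *Reg4* of 0.28 ± 0.04 and *Trib3* of 0.20 ± 0.08.

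Of the 38 genes that fell, 5 were on the list of 12 goblet markers and 5 on that of Paneth granule and niche proteins (16 tested), with *Spink4* on both, where 0.468% of all genes fell. *Retnlb* had 70.0 and 84.5 CPM in cells with at least 3 *Try5* UMIs against 142 and 154 CPM in *Try5*-negative cells, a log2 fold change of -0.92 ± 0.06 (edgeR adjusted p = 9.5e-44), with no overlap between the groups. *Gm7861* had 1495 and 1576 CPM against 2393 and 3008 CPM (log2 fold change -0.81 ± 0.04), and *AY761184* had 14800 and 12365 CPM against 24447 and 16778 CPM (-0.58 ± 0.04). *Ang4*, an antimicrobial ribonuclease of Paneth cells, fell by 0.33 ± 0.04 and the lysozyme *Lyz1* by 0.22 ± 0.04 on the log2 scale. *Itln1*, an intelectin of the same granules, rose by 0.18 ± 0.04, so the granule genes did not move as 1 group: of 16 tested on the Paneth granule list 2 rose and 5 fell. Of all genes tested 0.271% rose and 0.468% fell.

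The alpha-defensins split in the same way. Of the 11 tested alpha-defensin genes whose symbols do not start with *Defa*, 2 rose and 6 fell, where 0.271% of all genes rose and 0.468% fell. *Gm14851* had 24352 and 21879 CPM against 20274 and 13456 CPM (log2 fold change 0.48 ± 0.04) and *Gm15284* rose by 0.21 ± 0.04, while *Gm15308* fell by 0.50 ± 0.04, *Gm15315* by 0.28 ± 0.04 and *Gm7849* by 0.61 ± 0.09 on the log2 scale. These SE do not measure the spread of a gene between the 2 libraries. In DESeq2 *Gm14851* was at 0.48 ± 0.16 (DESeq2 adjusted p = 0.17) and *Gm15308* at -0.50 ± 0.07 (DESeq2 adjusted p = 9.9e-09). *Gm15308* was at -0.30 without doublet neighbours, and in cells with exactly 1 *Try5* UMI against none it was called higher, at 0.09 (edgeR adjusted p = 0.014). *Gm21002*, which GENCODE M21 also names as an alpha-defensin, fell by 0.38 ± 0.04. These genes are near-identical copies, so reads may have been divided among them with error, and their relative levels are uncertain.

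Markers of other cell types moved with this contrast. The summed level of the 12 goblet markers, of which *Spink4* was the most abundant, was 58695 and 63184 CPM in *Try5*-negative cells, 48641 and 53386 CPM with 3 to 9 *Try5* UMIs, and 48127 and 52642 CPM with 10 or more, and 5 of the 12 were called lower. Of 10 tested enteroendocrine markers *Sct* was called lower, at -0.43 ± 0.05, and of 14 enterocyte markers *Fabp6*, at -0.38 ± 0.05. Beside the counts of these 3 lists, 0.468% of all genes tested were lower. With doublet neighbours left out *Fabp6* moved to -0.02, while *Retnlb* was at -0.71. The part of other cell types in the result was not tested.

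**Figure D3:**
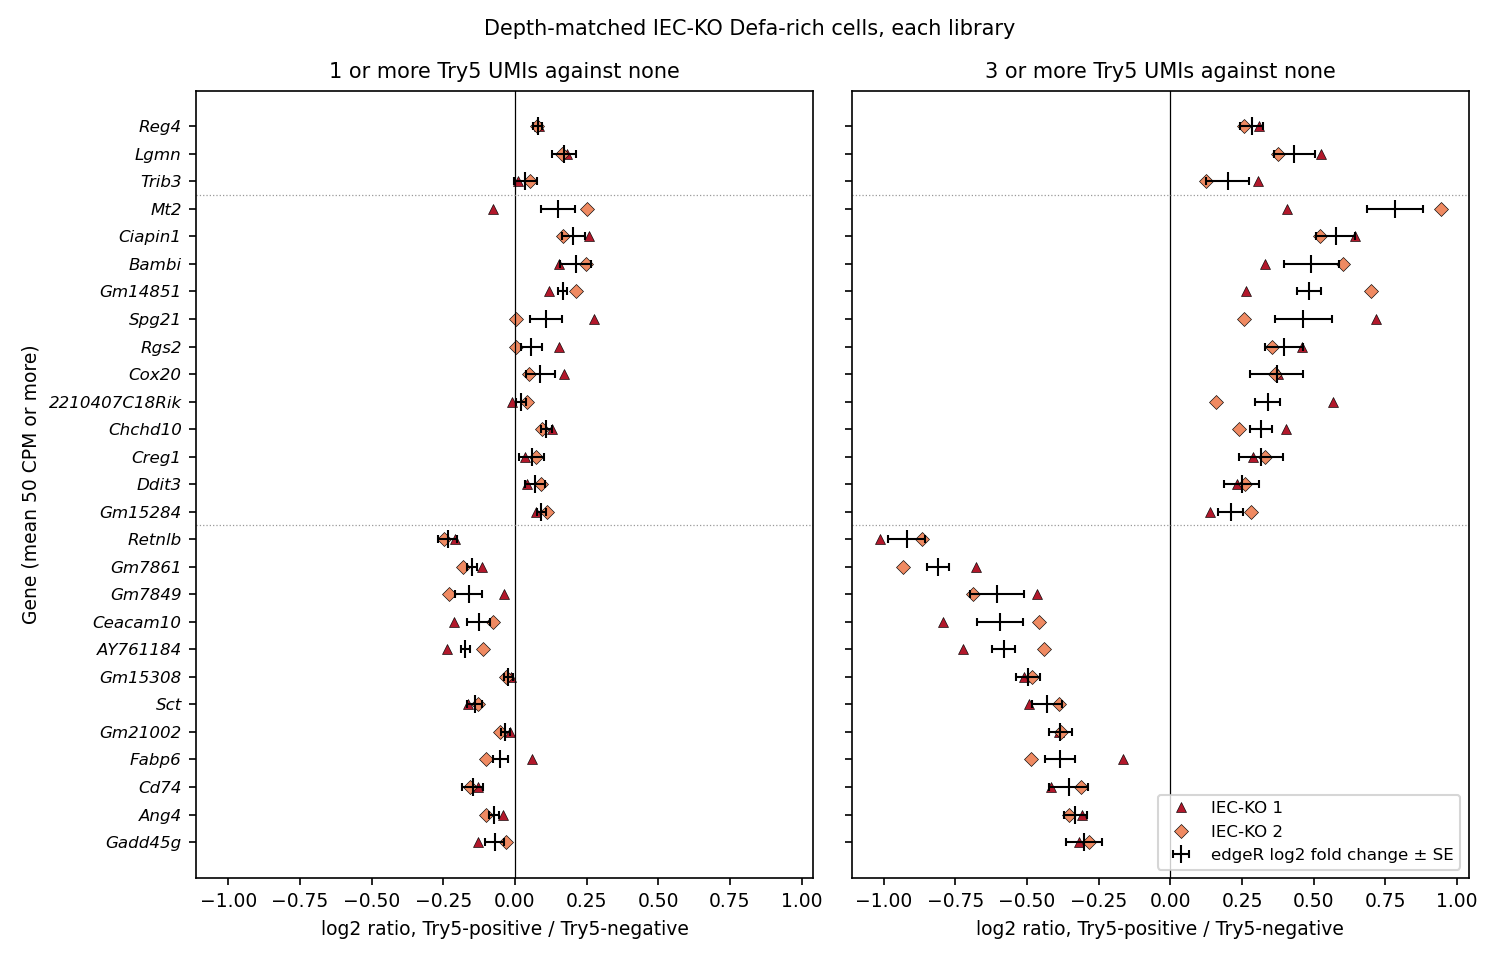
Log2 ratios of Try5-positive to Try5-negative cells at matched depth in each IEC-KO library (triangles and diamonds), with the edgeR log2 fold change and its SE (black), for the 3 marks given with the rule and the 24 genes named for at least 3 Try5 UMIs; left, at least 1 Try5 UMI, right, at least 3. The right panel has Mt2 at 0.78 and Retnlb at -0.92, where the left panel has Retnlb at -0.23.

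At least 3 *Try5* UMIs also gave fewer calls under other models: 10 genes with scaling by library size only, 8 with DESeq2 (*Ciapin1* and *Chchd10* higher, *Retnlb*, *Gm7861*, *Gm15308*, *Gm21002*, *Ang4* and *Spink4* lower), and 3 without the library block (*Retnlb*, *Gm7861* and *Ceacam10*, a surface glycoprotein, all lower). With doublet neighbours left out 70 were called.

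Against Defa-rich cells of the fl/fl libraries, the *Try5*-positive cells differed in a large part of the transcriptome. Of 12228 genes tested with edgeR (2 libraries against 2), 2032 were higher (16.6%) and 1888 lower (15.4%) at an adjusted p below 0.05, together 32.1%. With scaling by library size only, in place of TMM scaling, 8267 were higher (67.6%) and 332 lower (2.72%) and the median of all genes was at 0.64 in place of -0.01 on the log2 scale, so that the direction of small changes rests on the scaling. The log2 fold changes between genotypes are TMM-scaled, and the CPM beside them are not. Falls are therefore larger, and rises smaller, than the printed CPM show. Fl/fl Defa-rich cells were also deeper, with medians of 46117 and 52170 UMIs against 14200 and 22112.5. *Try5*-negative IEC-KO cells are given beside a part of the values, since the comparisons share samples.

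Genes of the integrated stress response were higher. Of 26 tested genes of this list other than *Trib3*, 25 were higher and 0 lower, with a median log2 fold change of 1.65 against -0.01 for all genes. Of all genes 16.6% were higher. With scaling by library size only the count was the same, where 67.6% of all genes were higher. The median of the list was then 2.31 against 0.64 for all genes. *Atf5*, a factor related to ATF4, had 2.94 and 2.87 CPM in fl/fl Defa-rich cells, 99.7 and 96.0 CPM in *Try5*-negative and 91.2 and 90.9 CPM in *Try5*-positive IEC-KO cells, a log2 fold change of 4.32 ± 0.08 (edgeR adjusted p = 1.1e-15). *Ddit3* had 6.93 and 5.48 CPM, 122 and 104 CPM, and 119 and 101 CPM (3.49 ± 0.10). *Chac1*, which degrades glutathione, had 1.67 and 1.42 CPM, 33.3 and 32.8 CPM, and 33.7 and 33.3 CPM (3.79 ± 0.09). *Atf4* itself had 45.5 and 40.01 CPM, 146 and 145 CPM, and 141 and 136 CPM (1.05 ± 0.07). For each of these genes both IEC-KO groups lay well above both fl/fl libraries, and *Try5*-positive cells lay next to *Try5*-negative cells.

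Genes of amino acid synthesis and tRNA charging moved with it. Of 18 tested genes of serine, asparagine and one-carbon synthesis, 14 were higher and 2 lower (16 and 0 with library size only). *Phgdh*, the first enzyme of serine synthesis, had 6.96 and 5.92 CPM in fl/fl, 63.6 and 65.4 CPM in *Try5*-negative and 65.1 and 60.0 CPM in *Try5*-positive cells (log2 fold change 2.63 ± 0.08), and the asparagine synthetase *Asns* had 21.3 and 18.01 CPM, 89.3 and 84.2 CPM, and 78.8 and 74.9 CPM (1.32 ± 0.07). Of 20 cytosolic aminoacyl-tRNA synthetases 16 were higher and 2 lower (19 and 0 with library size only), with *Eprs* at 1.51 ± 0.08, *Sars* at 1.33 ± 0.08 and *Nars* at 1.06 ± 0.07. Of 15 tested neutral amino acid transporters 5 were higher and 8 lower (7 and 4 with library size only). Beside these counts, 16.6% of all genes were higher and 15.4% lower (67.6% and 2.72% with library size only). *Slc3a2*, the partner chain of SLC7A5, had 20.7 and 20.1 CPM, 66.6 and 65.5 CPM, and 64.0 and 63.2 CPM, and was at 0.99 ± 0.07.

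Ribosomal proteins were higher as a block. Of 82 tested 81 were higher and 0 lower (82 and 0 with library size only), with a median log2 fold change of 0.83. Among all genes 16.6% were higher (67.6% with library size only). The list summed to 40790 and 39547 CPM in fl/fl, 119065 and 119132 CPM in *Try5*-negative and 113265 and 109495 CPM in *Try5*-positive Defa-rich cells. Other genes among the largest rises at 50 CPM or more were *Chchd10* (92.9 and 90.1 CPM in fl/fl and 960 and 783 CPM in *Try5*-positive cells, log2 fold change 2.60 ± 0.10), *Ciapin1* (10.2 and 8.43 CPM and 92.4 and 74.6 CPM, 2.505 ± 0.10), *Mt1* (65.0 and 55.8 CPM and 445 and 454 CPM, 2.25 ± 0.08), *2210407C18Rik*, *App* and *Zfos1*. *Retnlb* was also higher than in fl/fl cells, at 1.52 ± 0.07.

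The 8 named falls were 6 alpha-defensin genes, *Lyz1* and *Ang4*. *Gm15292*, an alpha-defensin gene, had 2538 and 2649 CPM in fl/fl, 283 and 281 CPM in *Try5*-negative and 323 and 339 CPM in *Try5*-positive cells, a log2 fold change of -3.62 ± 0.11 (edgeR adjusted p = 7.3e-13). *Gm7861* was at -2.46 ± 0.14, *AY761184* at -2.25 ± 0.17, *Gm14851* at -2.15 ± 0.17 and *Gm21002* at -1.88 ± 0.24. Of 12 alpha-defensin genes outside the *Defa* symbols 10 were lower and 1 was higher (6 and 1 with library size only). *Lyz1* had 35923 and 32768 CPM, 18706 and 14413 CPM, and 17997 and 14146 CPM (-1.74 ± 0.17), and *Ang4* 6424 and 6064 CPM, 3173 and 2491 CPM, and 3430 and 2679 CPM (-1.68 ± 0.14). *Mptx2*, a pentraxin of Paneth cells, was at -1.66 ± 0.13, and *Itln1* at -0.12 ± 0.16 did not pass the test. Of 21 tested Paneth granule and niche proteins 7 were higher and 8 lower (12 and 7 with library size only). The list summed to 105202 and 93911 CPM in fl/fl and 103685 and 91457 CPM in *Try5*-positive cells. Among all genes 16.6% were higher and 15.4% lower (67.6% and 2.72% with library size only). The *Defa* symbols themselves were used to choose the cells and are not compared.

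Counts of lysosomal and folding genes are read against the 16.6% of all genes that were higher and the 15.4% that were lower. Of 31 tested lysosome and autophagy genes 8 were higher and 3 lower, with the cathepsins *Ctsc* at 1.83 ± 0.08 and *Ctsl* at 1.49 ± 0.12 and the autophagy receptor *Sqstm1* at 1.17 ± 0.07. Of 26 genes of endoplasmic reticulum folding 8 were higher and 4 lower, with *Xbp1*, a factor of the unfolded protein response, at 0.56 ± 0.07 and the chaperone *Hspa5* at 0.17 ± 0.07, which did not pass the test. With library size only, where 67.6% of all genes were higher, 26 and 24 genes of these lists were higher and 1 of each lower. The counts of both lists thus rest on the scaling.

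Markers of other cells and of handling stood beside these results. All 14 enterocyte markers were lower, under both scalings, with a summed level of 1598 and 1471 CPM in fl/fl and 922 and 1061 CPM in *Try5*-positive cells, the most abundant being *Fabp1* in IEC-KO library 1 and *Apoa1* in the others. Immune markers, of which 4 of 8 were at 0 in the *Try5*-positive cells of both libraries and *Lyz2* was the most abundant, summed to 37.7 and 29.3 CPM in fl/fl and 14.95 and 12.8 CPM in *Try5*-positive cells. Genes of dissociation stress summed to 201 and 191 CPM and to 347 and 338 CPM, with 4 of 14 higher and 0 lower (12 and 0 with library size only), where 16.6% of all genes were higher (67.6% with library size only). Goblet markers summed to 44581 and 39890 CPM in fl/fl and 51899 and 56229 CPM in *Try5*-positive cells, with 3 of 12 higher and 5 lower (8 and 1 with library size only). Of 9 tuft markers 8 were lower (1 lower and 1 higher with library size only), of 10 cycling markers 9 (2 lower and 2 higher with library size only), and of 13 mitochondrially encoded genes 13 (6 lower and 2 higher with library size only), the last summing to 8511 and 8121 CPM in fl/fl and 7179 and 7536 CPM in *Try5*-positive cells. Beside these counts and those of enterocyte and goblet markers, 15.4% of all genes were lower (2.72% with library size only). The part of these cells, of handling, of RNA quality and of depth in the genotype result was not tested.

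**Figure D4:**
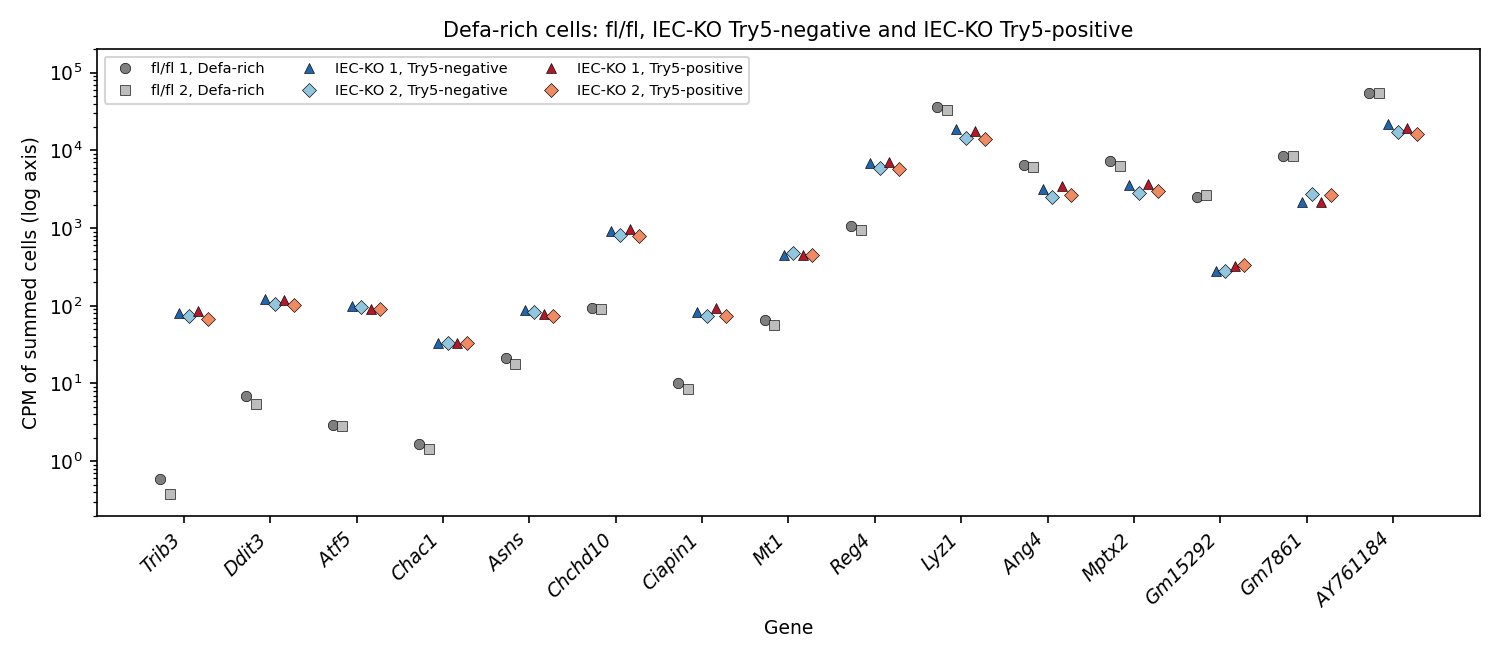
CPM of summed cells (log axis) of 15 genes in fl/fl Defa-rich cells (grey), IEC-KO Try5-negative Defa-rich cells (blue) and IEC-KO Try5-positive Defa-rich cells (red), 1 point for each library. Trib3, Ddit3, Atf5 and Chac1 are far above fl/fl and the alpha-defensin genes at the right are below it in both IEC-KO groups, whose points lie side by side.

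Since genes of this response moved together, the promoters of the list were searched for the composite site that ATF4 and C/EBP factors are known to bind, TGATGNAA, on both strands. RefSeq promoters (GRCm38.p6, 250 bases before to 50 after the start) were at hand for 24 of the 28 listed genes, and 9 of them held it (37.5%), against 1219 of 27025 genes with a promoter (4.51%). On the list of serine, asparagine and one-carbon synthesis 4 of 17 held it (23.5%), and on that of the synthetases 5 of 12 (41.7%). A match is a description of the sequence, and the lists were drawn up from known members of the response. Windows are printed for 4 genes, 5′ to 3′ on the strand of the gene, with the match or its reverse complement in capitals: *Trib3* (chr2:152344029-152344056, minus strand), *Chac1* (chr2:119351039-119351066, plus strand), *Atf3* (chr1:191183426-191183453, minus strand) and *Asns* (chr6:7693215-7693242, minus strand).
Trib3: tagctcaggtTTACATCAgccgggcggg
Chac1: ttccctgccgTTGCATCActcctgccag
Atf3: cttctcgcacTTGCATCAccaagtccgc
Asns: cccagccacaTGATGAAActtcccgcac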

How the data were processed

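The authors deposited raw UMI counts per gene and cell barcode for 4 libraries, 27998 genes each. The submitters' processing notes name Cell Ranger 2.1.1 and mm10. No cell was left out here. Doublets were kept, and an alternative dropped the cells with the most simulated doublets among their 30 neighbours (0.8% per 1000 cells). Depth per cell was at least 3843 UMIs.

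For the comparison within IEC-KO, cells were matched in bins of 0.05 log10 UMIs (seed 1) and counts summed per library and group. Sums were tested with edgeR 4.0.16 (TMM, filterByExpr, quasi-likelihood, Benjamini-Hochberg adjustment at 0.05), with library as block, since both groups come from the same library. The genotype comparison took all cells, without block. The SE is the log2 fold change over the square root of F. Within IEC-KO it does not measure a gene's own spread between the 2 libraries. CPM of depth-matched groups are TMM-scaled; the others are per summed UMIs. edgeR was tested on simulated data.

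Named genes were the 12 largest rises and 12 largest falls (8 and 8 between genotypes) with a mean of at least 50 CPM in the higher group and 1 direction in both libraries, or no overlap between genotypes, and members of lists (the 4 most abundant, and those past the threshold with a log2 change of 0.5 or more). The same rule was applied to cells with at least 3 *Try5* UMIs, and genes outside it, such as *Slc1a4* and *Gm15315*, were named after their values were seen. The members, the lists and the markers were chosen with earlier results of these data known. *Defa* symbols numbered 13, and GENCODE M21 names of the same IDs served as an alternative. A gate for enteroendocrine cells took 4066 and 4842 IEC-KO cells and was not used. Other alternatives were library size scaling, TMM without rule genes, no filter, at least 10 UMIs in every sum, DESeq2 1.42.0, thinning, 40% *Defa*, at least 2 *Try5* UMIs, unmatched cells, matching on other UMIs, and each library left out. Those with at least 3 or exactly 1 *Try5* UMI and with GENCODE names were chosen after seeing the data.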

Additional observations from a re-analysis of the deposited data

Results flagged for a closer look

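*Try5* was also counted in IEC-KO cells below the limit of 25% *Defa*, which enter no test of genes in the text. Of these cells 9.17% (667 of 7271) in library 1 and 12.5% (832 of 6659) in library 2 had a *Try5* UMI, against 0 of 1547 and 0 of 1212 such fl/fl cells, which at 3 counts of the total allows shares of up to 0.194% and 0.248%. They held 1695 and 1894 *Try5* UMIs. At least 3 *Try5* UMIs were found in 126 and 115 of them, 120 and 103 of which had at least 5% *Defa*. In these 126 and 115 cells *Reg4* stood at 9583 and 8773 CPM, *Lgmn* at 157 and 158 CPM, *Trib3* at 181 and 135 CPM, *Ddit3* at 236 and 199 CPM and *Ciapin1* at 207 and 172 CPM. Defa-rich cells with 10 or more *Try5* UMIs had *Reg4* at 9128 and 7684 CPM, *Lgmn* at 125 and 112 CPM and *Trib3* at 103 and 76.6 CPM. The groups were not compared by a test: *Defa* made up a median of 17.7% and 15.5% of UMIs below the limit, which raises the CPM of every other gene, and median depths were 8340 and 10920 UMIs.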

How the results depend on the processing

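The count of 22 genes called between *Try5*-positive and *Try5*-negative cells fell to 4 with scaling by library size only, 1 with DESeq2, 0 with no filter on low counts (471 at an unadjusted p below 0.05), 7 with thinning, 12 without doublet neighbours and 2 at 40% *Defa* or more, and was 38 without matching of depth. The 2 groups of a library come from the same library, and without the replicate block 0 genes were called (240 at an unadjusted p below 0.05). With at least 3 *Try5* UMIs it was 60, and then 70 without doublet neighbours, 10 with library size only, 54 without the filter, 8 with DESeq2 and 3 without the replicate block. With exactly 1 *Try5* UMI it was 6. Of the named genes of this comparison, *Chgb* turned to -0.11 without doublet neighbours, -0.55 with at least 2 *Try5* UMIs and, with at least 3, -0.0611, and with those also -0.12 without doublet neighbours, -0.0522 with library size only, -0.0613 without the filter and -0.0574 without the replicate block. *Apoa1* turned to -0.0932 with at least 2 UMIs and to -0.0686 with at least 3 and no doublet neighbours. At 40% *Defa* or more *Gm14851* was at -0.0783, *Pnliprp2* at -0.0054, *Apoa1* at -0.0790, *Gm15284* at -0.0234, *Retnlb* at 0.38, *Cd74* at 0.0555, *Rnase1* at 0.0327, *Spink4* at 0.0066, *Tff3* at 0.0118 and *Guca2a* at 0.0032. Unmatched, *Gm7861* was at 0.0517 and *Ang4* at 0.17. With exactly 1 UMI *Gm14851* was at -0.0981, *Gm15284* at -0.0073, *Gm7861* at 0.0662 and *Cd74* at 0.0099. The cause of these changes was not tested. Leaving out a library left no residual degrees of freedom and gave no count.

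Between genotypes the 3920 called genes became 8599 with library size only, 2274 with DESeq2, 1513 with thinning and 1450 at 40% *Defa* or more, and 3032 to 3770 with 1 library left out, where the lone library is assumed to vary like the other group. Replicate numbers did not pair the samples (r = 0.025 over 9817 genes between the replicate 1 to 2 ratios of the genotypes), and the replicate block gave 4092. The 8 rises and 8 falls named for this comparison kept their direction in each alternative run, 256 values in all. Their calls were kept in the runs with 2 libraries a group. Other genes named as members of lists are not part of these values. The mean share of Defa-rich cells with *Try5*, 29.9% ± 5.63 (SD, n = 2), was 11.9% after thinning, 12.02% for at least 2 UMIs, 8.44% for at least 3, and 25.9% to 33.9% with 1 library left out.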
